A study of Mus musculus with 4 samples.

Results

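The 8 adrenergic receptor genes Adra1a, Adra1b, Adra1d, Adra2a, Adra2b, Adra2c, Adrb1 and Adrb3 were followed through single cells of the mouse brain. They were chosen by gene symbol, not by their values, and each matched 1 of the 32285 genes in the count matrices. All mice were wild type, and their hippocampus and sensory cortex were taken after DOCA-salt (deoxycorticosterone acetate with salt, a regimen known to raise blood pressure) or after a sham procedure. This gave 4 libraries, 1 for each tissue and treatment. Each group has 3 mice per the labels, which do not state pooling, age or any allele beyond wild type. With 1 library in each group no test between groups was possible, so no p-value is given, and every interval covers counting error only.

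Adrenergic receptors are the cell-surface receptors for noradrenaline and adrenaline. In the brain noradrenaline comes mainly from neurons of the locus coeruleus, and it acts on glia as well as on neurons. Alpha-1 receptors signal through Gq to phospholipase C and calcium, alpha-2 receptors through Gi to lower cyclic AMP, and beta receptors through Gs to raise it.

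The deposited matrices held 11159 to 11402 barcodes and 66824217 to 70173987 unique molecular identifiers (UMIs, each standing for 1 captured transcript) per library. After removal of low-quality barcodes and doublets, 10761 cells remained for hippocampus DOCA-salt, 10657 for hippocampus sham, 10755 for cortex DOCA-salt and 10349 for cortex sham, at a median of 5538 to 5850 UMIs per cell. The treatment field of the labels contradicts the title for the cortex DOCA-salt and the hippocampus sham libraries. Groups follow the titles here, and each direction given between treatments depends on that choice. A total of 584 barcodes occurred in more than 1 library. Cells were assigned to a class when they held at least 4 of its 8 marker genes and at least 2 more than of any other class. Of 17 classes, 6 held at least 50 cells in every library: oligodendrocytes, astrocytes, microglia, endothelial cells, pericytes and border macrophages. Among these 6, all 8 markers of each class were highest in the class they mark. The same markers assigned the cells, so this is no separate check of the classes. Neurons were scarce, with 226 cells of the neuronal lineage among 42522. Hippocampus sham held 95 choroid plexus cells and the other libraries held none.

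Of the 8 genes, 4 had more than 500 UMIs in the kept cells. Adrb1, the beta-1 receptor, had 3647 UMIs in 3063 cells. Adra1a, the alpha-1A receptor, had 2863 UMIs in 2307 cells. Adra1b, the alpha-1B receptor, had 786 UMIs in 734 cells, and Adra2a, the alpha-2A receptor, had 591 UMIs in 537 cells. The other 4 were rare. Adra2c, the alpha-2C receptor, had 53 UMIs, and Adrb3, the beta-3 receptor known from brown fat, had 13. Adra2b, the alpha-2B receptor, had 1 UMI. Adra1d, the alpha-1D receptor, had none in kept cells, and its only deposited UMI was in a barcode removed as a doublet. A count of 0 allows Adra1d up to 0.0473 CPM (UMIs per 1000000 UMIs of the same cells) in hippocampus DOCA-salt.

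In the GENCODE vM21 annotation of GRCm38, Adra1a lies at chr14:66635251-66771168 on the plus strand and Adra1b at chr11:43774606-43901210 on the minus strand. Adra2a and Adrb1 both lie on the plus strand of chromosome 19, at chr19:54044151-54048982 and chr19:56722199-56733113. No other annotated gene overlapped these 4. Adra1d at chr2:131545850-131562283 overlapped an exon of the antisense gene Gm14285, and Adrb3 at chr8:27225776-27250616 one of Gm45470. The strand used in counting is not given in the sources used here, so the 13 UMIs of Adrb3 cannot be told apart from reads of its antisense partner. Adra2b lies at chr2:127363208-127367221 and Adra2c at chr5:35278319-35281763.

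Promoter sequences are shown for Adra1b, whose astrocyte level differed between the tissues, and for Adrb1, which astrocytes and microglia share. RefSeq promoter windows on GRCm38.p6 matched 5 of the 8 genes. Each line below holds the 250 bases before an annotated start, 5′ to 3′ on the gene's strand, with motif matches in capitals.
Adra1b, upstream start, chr11:43901238-43901487, minus strand: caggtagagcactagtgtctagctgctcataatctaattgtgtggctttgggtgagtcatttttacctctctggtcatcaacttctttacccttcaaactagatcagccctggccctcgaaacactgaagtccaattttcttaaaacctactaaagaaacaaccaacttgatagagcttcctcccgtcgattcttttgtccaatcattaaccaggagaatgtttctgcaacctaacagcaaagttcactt
Adra1b, downstream start, chr11:43836490-43836739, minus strand: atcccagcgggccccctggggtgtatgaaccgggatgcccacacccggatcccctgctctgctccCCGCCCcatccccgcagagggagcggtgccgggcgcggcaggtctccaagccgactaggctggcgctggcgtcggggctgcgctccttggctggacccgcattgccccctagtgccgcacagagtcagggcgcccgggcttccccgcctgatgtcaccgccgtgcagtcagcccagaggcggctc
Adrb1, chr19:56721867-56722116, plus strand: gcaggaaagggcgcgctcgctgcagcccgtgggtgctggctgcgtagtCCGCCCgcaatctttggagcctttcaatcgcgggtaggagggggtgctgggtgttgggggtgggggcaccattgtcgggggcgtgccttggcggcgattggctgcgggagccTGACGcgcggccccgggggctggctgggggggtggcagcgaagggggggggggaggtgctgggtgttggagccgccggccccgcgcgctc
The motifs searched on both strands were the GC box GGGCGG, the CRE half-site TGACG bound by cyclic AMP response element factors, and AGAACA, a half-site of the glucocorticoid and mineralocorticoid receptors. No base fell in more than 1 match. The upstream Adra1b window held none of the 3 and was 41.6% G and C, against 72.8% for the downstream window, which held 1 GC box. The Adrb1 window was 74.0% G and C and held 1 GC box and 1 CRE half-site. Over 32851 promoter windows of the same length, 32.7% held the GC box, 17.8% the CRE half-site and 16.1% AGAACA, and the median content of G and C was 52.4%. The 3' UMI counts do not tell which Adra1b start was used.

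Each of the 4 frequent receptors had its own spread over cell classes. Astrocytes held 88.5% of the Adra1a UMIs, 78.6% of the Adra1b UMIs and 63.3% of the Adra2a UMIs, while they gave 23.8% of all UMIs. Adrb1 was divided between astrocytes, with 47.6%, and microglia, with 42.9%. Microglia gave 22.6% of all UMIs. Oligodendrocytes gave 36.9% of all UMIs and held 2.08% to 13.5% of the UMIs of these 4 receptors.

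**Figure D1:**
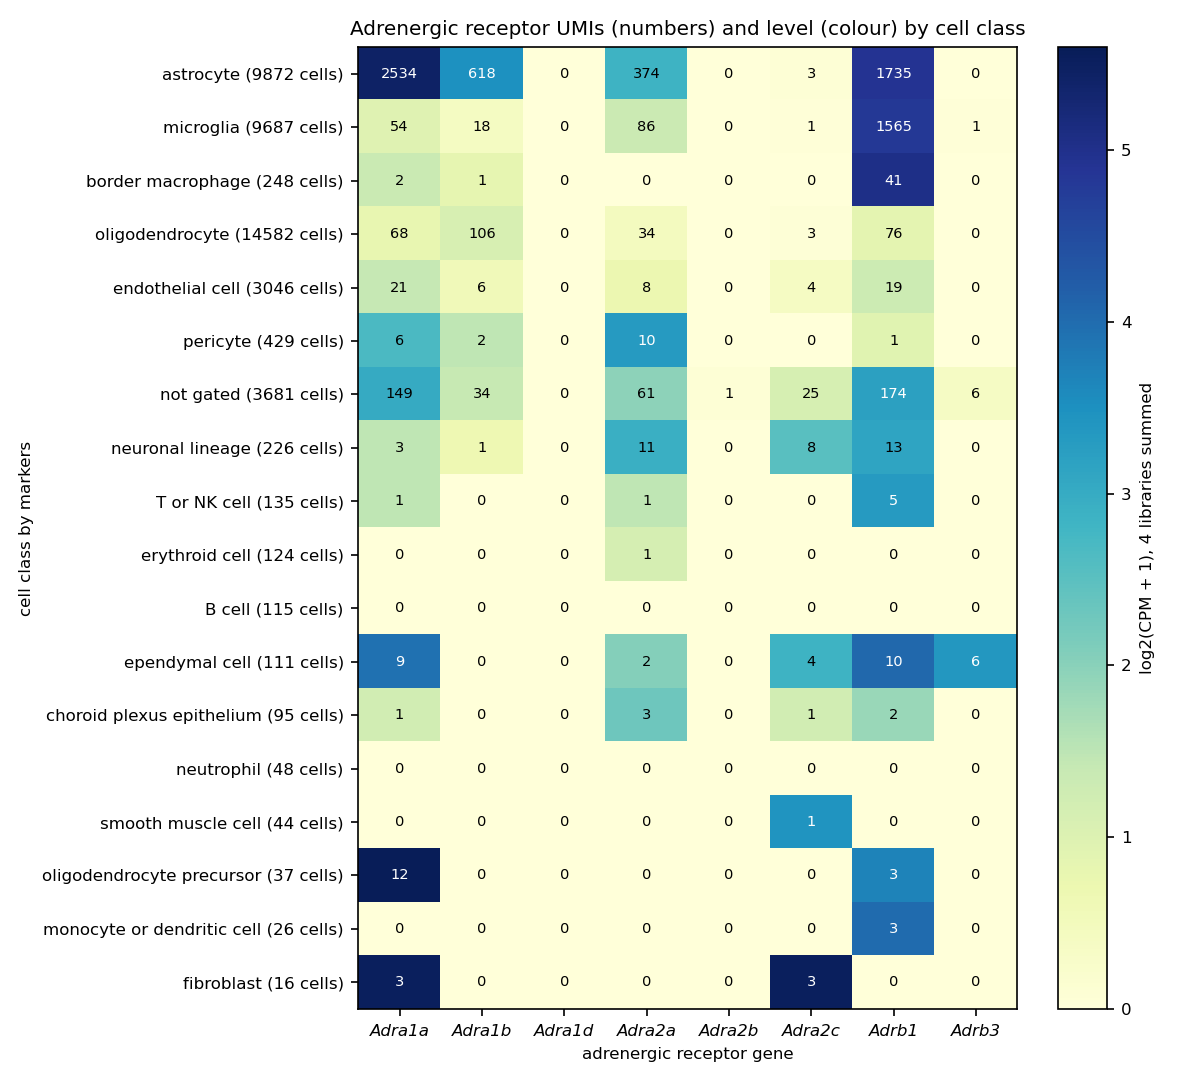
Level of each adrenergic receptor gene (columns) in each marker-defined cell class (rows, with the number of cells) over the 4 libraries summed; colour is log2(CPM + 1) and each number is the UMI count. Adra1a, Adra1b and Adra2a had most of their UMIs in astrocytes, Adrb1 in astrocytes and microglia, and Adra1d had none in any class.

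Adra1a was detected in 20.4% of astrocytes (exact interval 19.6% to 21.2%) and Adrb1 in 15.1% (14.4% to 15.8%), at a median of 5846 UMIs per cell. In microglia, at a median of 5862 UMIs, Adrb1 was detected in 13.1% (12.4% to 13.8%) and Adra1a in 0.537% (0.401% to 0.703%). These shares were set against erythroid cells, which should lack the receptors. The 124 erythroid cells, at a median of 6459.5 UMIs, held 1 receptor UMI in all, of Adra2a, and their 0 of 124 for Adra1a and Adrb1 allows a share of up to 2.42%. Adrb1 in both classes and Adra1a in astrocytes thus lay above what the erythroid cells allow. Adra1a in microglia lay below that limit, as did Adra1b in oligodendrocytes (0.706%), for which the erythroid cells also had 0 of 124. Adra2a in microglia (0.785%) lay near the erythroid share, 1 of 124 or 0.806% (0.0204% to 4.41%). These 3 shares are not told apart from the background that 124 erythroid cells allow. Adra1b was found in 0.186% of microglia (0.110% to 0.294%), below the oligodendrocyte interval of 0.577% to 0.856%. Adra2a was found in 0.233% of oligodendrocytes (0.162% to 0.326%), below the microglial interval of 0.619% to 0.981%. For Adra1a the oligodendrocyte share, 0.459% (0.356% to 0.583%), had an interval that overlapped the microglial one.

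Adra1a, the alpha-1 receptor that couples noradrenaline to calcium release, was the receptor whose UMIs were most concentrated in astrocytes. Its astrocyte level was 40.2 CPM in hippocampus DOCA-salt, against 37.0 CPM in hippocampus sham (405 and 164 UMIs). In cortex it was 47.5 CPM after DOCA-salt, against 38.1 CPM after sham (1138 and 827 UMIs). Cortex DOCA-salt stood highest, with an interval of 44.8 to 50.4 CPM that did not meet those of the other 3 libraries, which overlapped one another. Outside astrocytes Adra1a lay at or below 1.65 CPM in microglia and 1.44 CPM in oligodendrocytes in every library. Pericytes had 6 UMIs of Adra1a in 429 cells and endothelial cells had 21 in 3046 cells. The 37 cells of the oligodendrocyte precursor class, which was too small for comparison, held 12 Adra1a UMIs, at 47.5 CPM (24.5 to 82.9), with UMIs in all 4 libraries. The 111 cells of the ependymal class, also too small for comparison, held 9 Adra1a UMIs, at 14.1 CPM (6.44 to 26.7). Over all cells of a library, Adra1a was 7.75 CPM in hippocampus DOCA-salt and 3.34 CPM in hippocampus sham. These libraries held 1670 and 835 astrocytes, while the level within astrocytes was 1.09 times that of sham.

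Adra1b, the other alpha-1 receptor with a measurable level, separated the tissues. Its astrocyte level was 4.07 CPM in hippocampus DOCA-salt and 4.74 CPM in hippocampus sham (41 and 21 UMIs), and 10.9 CPM in cortex DOCA-salt and 13.6 CPM in cortex sham (261 and 295 UMIs). Both hippocampal values lay below both cortical ones, and no hippocampal interval met a cortical one. Oligodendrocytes held the next largest number of Adra1b UMIs, at 1.18 CPM in hippocampus DOCA-salt, 0.941 CPM in hippocampus sham, 1.19 CPM in cortex DOCA-salt and 1.40 CPM in cortex sham. Pericytes held 2 Adra1b UMIs, at 1.79 CPM (0.216 to 6.45), an interval that included the oligodendrocyte level. Set against the astrocytes of the same library, the oligodendrocyte level of Adra1b was 28.9%, 19.9%, 10.9% and 10.3%, in that order of libraries. The summed level of the 8 astrocyte markers in the same oligodendrocytes was 2.39%, 1.37%, 4.84% and 3.66% of that in astrocytes, and Adra1a was at 0.953% to 3.03%. All 8 astrocyte markers had UMIs in the oligodendrocytes of each library. In each library Adra1b stood at a larger share of its astrocyte level than the markers or Adra1a did. The class gate limits how many markers of another class a cell may hold, which can lower such marker shares. The part of astrocyte RNA in the oligodendrocyte Adra1b was not tested. The share of oligodendrocytes with Adra1b, 0.706%, was not told apart from the erythroid background above.

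Adra2a, the alpha-2 receptor that lowers cyclic AMP, separated the tissues the other way. Its astrocyte level was 10.4 CPM in hippocampus DOCA-salt and 15.3 CPM in hippocampus sham (105 and 68 UMIs), and 4.22 CPM in cortex DOCA-salt and 4.60 CPM in cortex sham (101 and 100 UMIs). Both hippocampal values lay above both cortical ones, again with no overlap of intervals between tissues. Microglial Adra2a was 1.52, 1.48, 1.43 and 1.58 CPM in hippocampus DOCA-salt, in hippocampus sham, in cortex DOCA-salt and in cortex sham, so these 4 libraries did not differ beyond counting error. Pericytes, the contractile cells of capillaries, held 10 Adra2a UMIs in 429 cells, at 8.93 CPM (4.28 to 16.4), with UMIs in each library. Cells of the neuronal lineage held 11 in 226 cells, at 6.57 CPM (3.28 to 11.8).

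Adrb1, the beta receptor that raises cyclic AMP and is best known from the heart, was found in 3 classes at like levels. In astrocytes it was 31.5 CPM in hippocampus DOCA-salt and 33.6 CPM in hippocampus sham (317 and 149 UMIs), and 29.8 CPM in cortex DOCA-salt and 25.6 CPM in cortex sham (713 and 556 UMIs). In microglia, the resident macrophages of the brain tissue, it was 23.2 CPM in hippocampus DOCA-salt and 24.9 CPM in hippocampus sham (382 and 302 UMIs), and 28.3 CPM in cortex DOCA-salt and 33.4 CPM in cortex sham (394 and 487 UMIs). Microglia therefore stood at 73.6% and 74.0% of the astrocyte level in hippocampus DOCA-salt and hippocampus sham, and at 94.9% and 130% in cortex DOCA-salt and cortex sham. The summed astrocyte markers in microglia were 13.5% and 1.80% of the astrocyte level in hippocampus DOCA-salt and hippocampus sham, and 13.6% and 4.08% in cortex DOCA-salt and cortex sham. Adra1a in the same microglia was 0.668% to 3.47% of its astrocyte level.

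Border macrophages, which line vessels and meninges, held 41 Adrb1 UMIs in 248 cells. Their level was 38.9 CPM in hippocampus DOCA-salt and 39.1 CPM in hippocampus sham (17 and 12 UMIs), and 21.9 CPM in cortex DOCA-salt and 21.8 CPM in cortex sham (6 UMIs each). All 4 intervals overlapped, and they also overlapped those of astrocytes and microglia. Among other immune cells Adrb1 had 5 UMIs in 135 T or NK cells and 3 UMIs in 26 monocytes or dendritic cells. The 115 B cells and 48 neutrophils held no UMI of any of the 8 receptors. Endothelial cells had 19 Adrb1 UMIs in 3046 cells, at 1.48 CPM, and pericytes had 1. The 111 cells of the ependymal class, which was too small for comparison, held 10 Adrb1 UMIs, at 15.7 CPM (7.50 to 28.8).

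**Figure D2:**
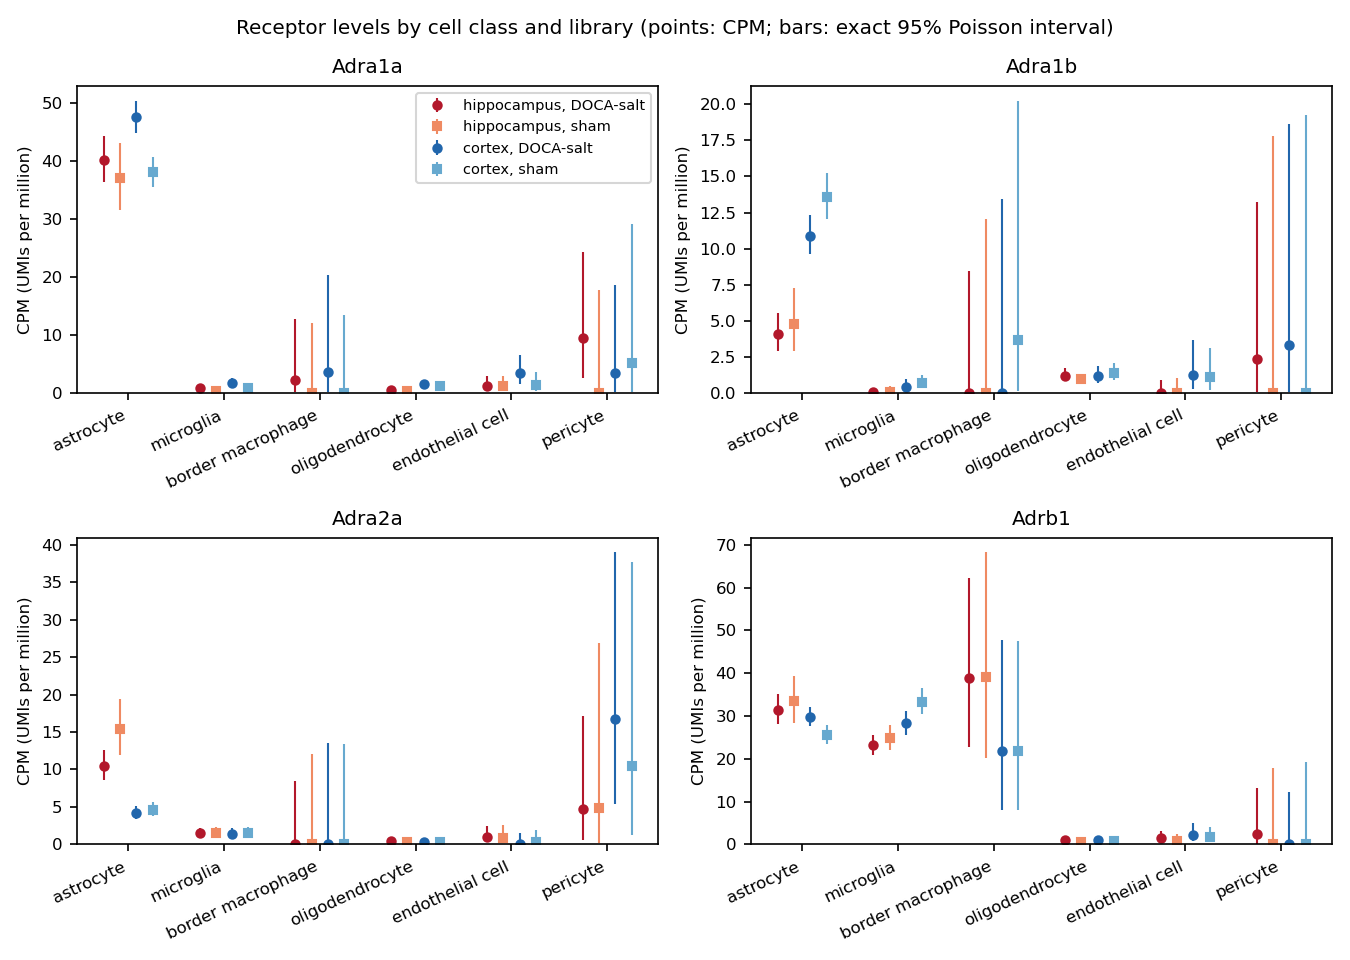
Levels of Adra1a, Adra1b, Adra2a and Adrb1 in CPM (linear axis from 0) in 6 cell classes; each point is 1 library and each bar its exact 95% Poisson interval. Adra1b was lower in both hippocampal astrocyte samples (4.07 and 4.74 CPM) than in the cortical ones (10.9 and 13.6 CPM), Adra2a was higher there, and Adrb1 had levels over 20 CPM in astrocytes, microglia and border macrophages of all 4 libraries.

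Depth differs between classes and libraries, so cells were also thinned to 2000 UMIs each, leaving out shallower cells. Adra1b was then found in 0.970% of astrocytes in hippocampus DOCA-salt and 0.955% in hippocampus sham, and in 1.99% in cortex DOCA-salt and 2.83% in cortex sham. Unthinned, these shares were 2.40%, 2.51%, 5.82% and 8.18%. For Adra2a the thinned shares were 2.43% in hippocampus DOCA-salt and 2.59% in hippocampus sham, and 1.09% in both cortical libraries, from 5.75%, 6.83%, 2.37% and 2.83% unthinned. Both tissue differences thus kept their direction at equal depth. The thinned share of microglia with Adrb1 was 4.99% in hippocampus DOCA-salt and 5.06% in hippocampus sham, and 5.34% in cortex DOCA-salt and 7.38% in cortex sham, from 11.8%, 11.7%, 13.5% and 15.3% unthinned. Thinning left out 227, 102, 430 and 322 astrocytes and 207, 174, 146 and 166 microglia, in the order of libraries used above.

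Receptors were also counted per cell. At least 1 UMI of any of the 8 genes was found in 37.3% of astrocytes in hippocampus DOCA-salt, 33.2% in hippocampus sham, 38.1% in cortex DOCA-salt and 37.3% in cortex sham. UMIs of 2 or more receptor genes were found in 6.59%, 6.71%, 6.89% and 7.11% of them. In microglia the share with any receptor was 13.04%, 12.5%, 15% and 17.0%, and with 2 or more at most 0.348%. In endothelial cells it was 1.43% to 2.72%. At 2000 UMIs per astrocyte, Adrb1 was found in 4.84% of Adra1a-positive cells against 7.13% of the rest in hippocampus DOCA-salt, and in 3.33% against 7.58% in hippocampus sham. In cortex DOCA-salt the shares were 5.40% against 6.29%, and in cortex sham 6.17% against 4.59%. All 4 pairs of intervals overlapped, so at this depth Adrb1 was not detectably more or less frequent in Adra1a-positive astrocytes.

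The treatment comparison asked whether the receptors differed between DOCA-salt and sham within each tissue. A receptor in a class was compared where both libraries had at least 50 cells of the class and at least 20 UMIs of the gene between them, and it was counted as past the fold when the CPM ratio was at least 1.5 or at most 0.667. In hippocampus 11 pairs of receptor and class could be compared and 2 were past 1.5-fold. Over all genes compared the same way, 14.6% were past it in oligodendrocytes, 12.2% in astrocytes, 12.2% in microglia and 25% in border macrophages. The 2 pairs were Adra2a (12 and 11 UMIs, ratio 1.51) and Adrb1 (23 and 19 UMIs, ratio 1.67) in oligodendrocytes. Both intervals included 1, and both levels were under 1 CPM. None of the 4 astrocyte pairs and neither of the 2 microglial pairs was past the fold.

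In hippocampal astrocytes the DOCA-salt over sham ratio of Adra1a was 1.09 (0.905 to 1.31), that of Adra1b 0.860 (0.496 to 1.53) and that of Adrb1 0.937 (0.769 to 1.15). These intervals included 1. Adra2a was 10.4 CPM in hippocampus DOCA-salt, against 15.3 CPM in hippocampus sham, a ratio of 0.680 (0.496 to 0.936). That interval lay below 1 while the ratio stayed within 1.5-fold, and with a stricter class gate it was 0.641, past the fold. Adrb1 in hippocampal microglia had a ratio of 0.932 (0.799 to 1.09) and in border macrophages 0.994 (0.447 to 2.28).

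In cortex 10 pairs could be compared and 1 was past 1.5-fold, against 12.7% of all genes in oligodendrocytes, 12.4% in astrocytes and 11.3% in microglia. It was Adra1a in microglia, with 23 UMIs after DOCA-salt and 13 after sham, a ratio of 1.85 (0.900 to 3.98). The summed astrocyte markers in these microglia were 2423 CPM in cortex DOCA-salt and 761 CPM in cortex sham, with all 8 markers detected in both, and their part in that ratio was not tested. In cortical astrocytes, where the counts were largest, 3 intervals excluded 1 at ratios within 1.5-fold. Adra1a was higher after DOCA-salt, with a ratio of 1.25 (1.14 to 1.37). Adrb1 was also higher, at 1.16 (1.04 to 1.30), and Adra1b was lower, at 0.803 (0.677 to 0.952). Adra2a had a ratio of 0.917 (0.689 to 1.22). The mix of astrocyte clusters, given below, differed between treatments in both tissues. Its part in the astrocyte ratios of either tissue was not tested. In cortical microglia Adrb1 was 28.3 CPM after DOCA-salt, against 33.4 CPM after sham, a ratio of 0.847 (0.740 to 0.969). These intervals leave out the spread between mice, which 1 library per group does not show.

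**Figure D3:**
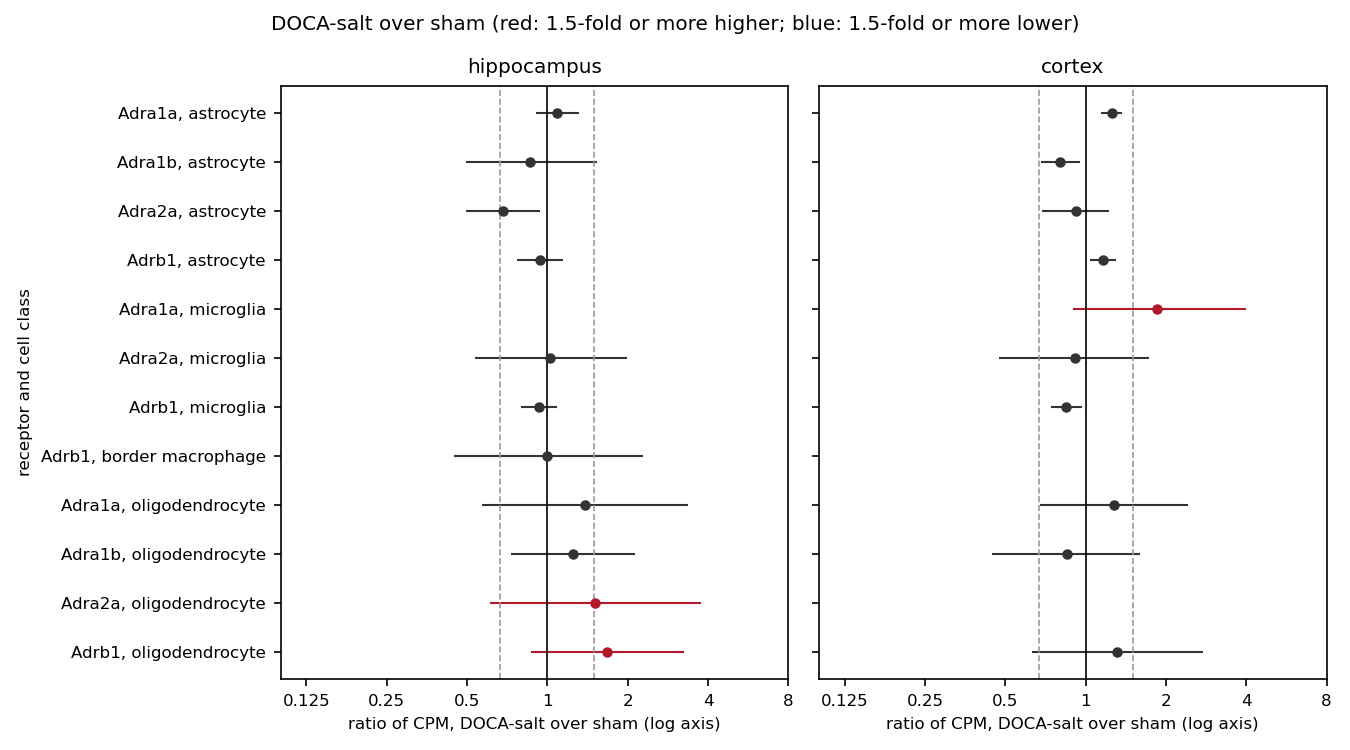
Ratio of CPM, DOCA-salt over sham (log axis), for each receptor and cell class with enough UMIs, in hippocampus (left) and cortex (right); points are ratios, bars exact 95% intervals of counting error, dashed lines 1.5-fold, and an empty place a pair under the minimum. All 4 receptors in astrocytes lay within 1.5-fold in both tissues, and the 3 coloured pairs had intervals that included 1.

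The tissue comparison set hippocampus against cortex within each treatment. After DOCA-salt 11 pairs could be compared and 5 were past 1.5-fold, against 11.9% of all genes in oligodendrocytes, 13.9% in astrocytes, 12.9% in microglia and 23.1% in border macrophages. After sham 9 pairs could be compared and 4 were past it, against 12.9% in oligodendrocytes, 18.7% in astrocytes and 16.3% in microglia. Adra1b in astrocytes was lower in hippocampus than in cortex in both comparisons, at a ratio of 0.373 (0.262 to 0.521) after DOCA-salt and 0.349 (0.213 to 0.543) after sham. Adra2a in astrocytes was higher in hippocampus in both, at 2.47 (1.86 to 3.28) after DOCA-salt and 3.33 (2.41 to 4.58) after sham. The 2 tissue comparisons share no library, and both pairs were past the fold under all 9 alternative settings as well.

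Adra1a in oligodendrocytes was also lower in hippocampus, at 0.339 (0.154 to 0.710) after DOCA-salt and 0.312 (0.140 to 0.665) after sham. It had 12 UMIs in each hippocampal library, and 23 in cortex DOCA-salt and 21 in cortex sham. The summed astrocyte markers in these oligodendrocytes were 430 CPM in hippocampus DOCA-salt and 237 CPM in hippocampus sham, and 865 CPM in cortex DOCA-salt and 681 CPM in cortex sham. Their part in the Adra1a difference was not tested. The other pairs past the fold were Adra1a in microglia (0.552) and Adrb1 in border macrophages (1.78) after DOCA-salt, and Adrb1 in oligodendrocytes (0.649) after sham, and all 3 intervals included 1.

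Adrb1 differed less between tissues. In microglia it was lower in hippocampus in both comparisons, at 0.821 (0.711 to 0.947) after DOCA-salt and 0.745 (0.644 to 0.862) after sham, within 1.5-fold each time, and at 0.644 after sham, past the fold, in cells thinned to 2000 UMIs. In astrocytes its ratio was 1.06 (0.923 to 1.21) after DOCA-salt and 1.31 (1.09 to 1.58) after sham. Adra1a in astrocytes had ratios of 0.846 (0.754 to 0.949) after DOCA-salt and 0.972 (0.817 to 1.15) after sham.

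**Figure D4:**
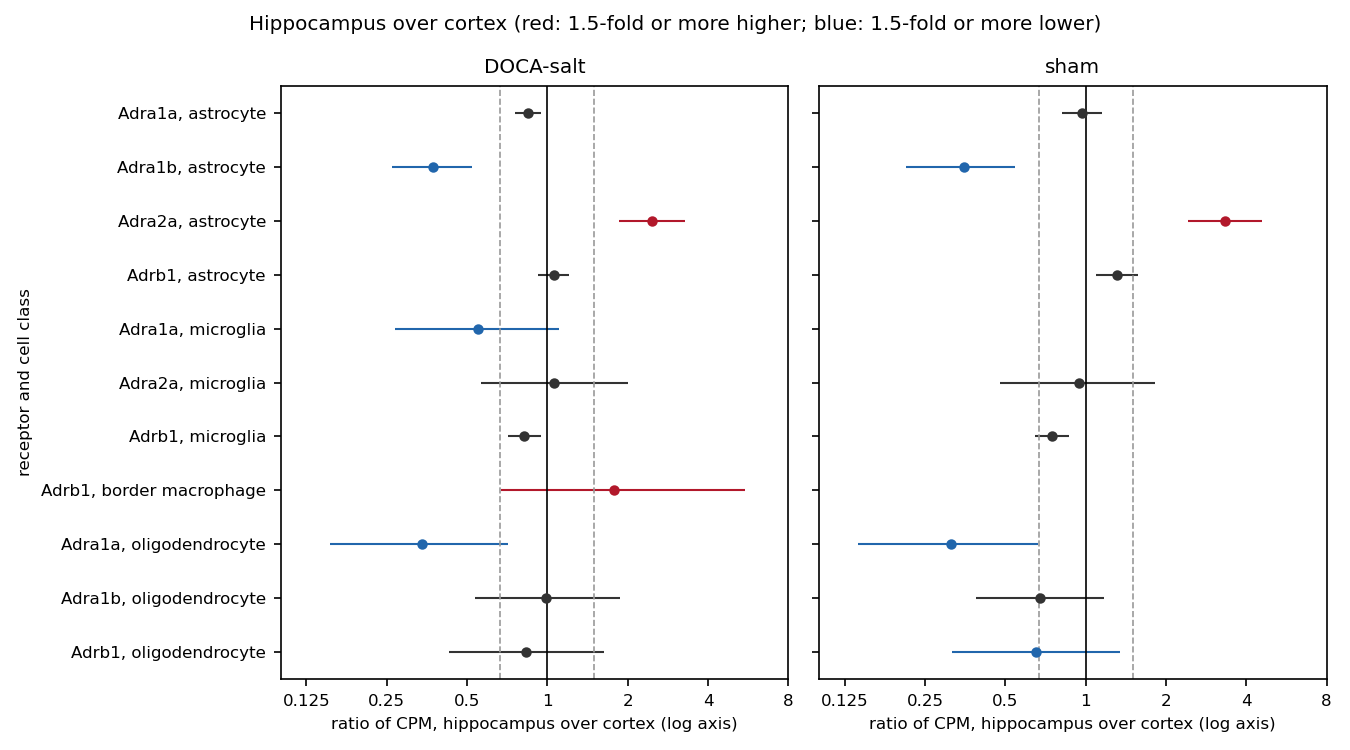
Ratio of CPM, hippocampus over cortex (log axis), for each receptor and cell class with enough UMIs, after DOCA-salt (left) and sham (right); points are ratios, bars exact 95% intervals of counting error and dashed lines 1.5-fold. In astrocytes Adra1b lay left of the lower line (0.373 and 0.349) and Adra2a right of the upper one (2.47 and 3.33) in both panels, with Adra1a and Adrb1 between the lines.

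Astrocytes are not uniform, so the receptors were described in 5 clusters of the joint clustering that hold astrocytes, each named by its number and leading genes. Clusters 3 (Hes5, Aldoc) and 26 (Gpc5, Lsamp) were the largest. They held 398 and 730 cells in hippocampus DOCA-salt, 128 and 450 in hippocampus sham, 2075 and 1110 in cortex DOCA-salt, and 1409 and 1328 in cortex sham. The mix of clusters thus differed between tissues and, within each tissue, between treatments. A further cluster whose gated cells were mostly astrocytes, cluster 0 (Mt3, Hopx; 1619 cells), is not shown because it was shallow, at a median of 887 to 1288 UMIs per cell in the 4 libraries, and held at most 17 UMIs of any receptor in a library. Within cluster 3 Adra1b was 4.86 CPM in hippocampus DOCA-salt and 2.50 CPM in hippocampus sham, and 10.8 CPM in cortex DOCA-salt and 13.3 CPM in cortex sham. Within cluster 26 it was 4.45, 5.85, 10.8 and 15.3 CPM in the same order. Adra2a within cluster 26 was 12.04 CPM in hippocampus DOCA-salt and 16.2 CPM in hippocampus sham, and 4.38 CPM in cortex DOCA-salt and 4.80 CPM in cortex sham. Within cluster 3 it was 7.85, 11.2, 2.99 and 3.90 CPM in the same order. Each tissue difference thus had the same direction inside both clusters.

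Smaller clusters differed in which receptor stood out. In cluster 16 (Ptprt, Pde10a) Adra1a was 61.7 CPM in hippocampus DOCA-salt and 52.6 CPM in hippocampus sham, and 86.9 CPM in cortex DOCA-salt and 98.8 CPM in cortex sham. Adra1b in the same cluster was 32.1 CPM (18.7 to 51.4, 17 UMIs) in cortex DOCA-salt, against 4.76 CPM (1.30 to 12.2, 4 UMIs) in cortex sham, so its order there was opposite to that over all cortical astrocytes. In cluster 24 (Gria1, Agt) Adra2a was 45.1 and 27.8 CPM in hippocampus DOCA-salt and hippocampus sham, and 16.9 and 22.5 CPM in cortex DOCA-salt and cortex sham. Cluster 27 (Myoc, Gfap) had no more than 1 UMI of Adra1b in any library, and its Adrb1 level was 15.9, 16.8, 9.55 and 4.53 CPM, in that order of libraries. As the receptors themselves could enter the clustering, these values are a description.

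**Figure D5:**
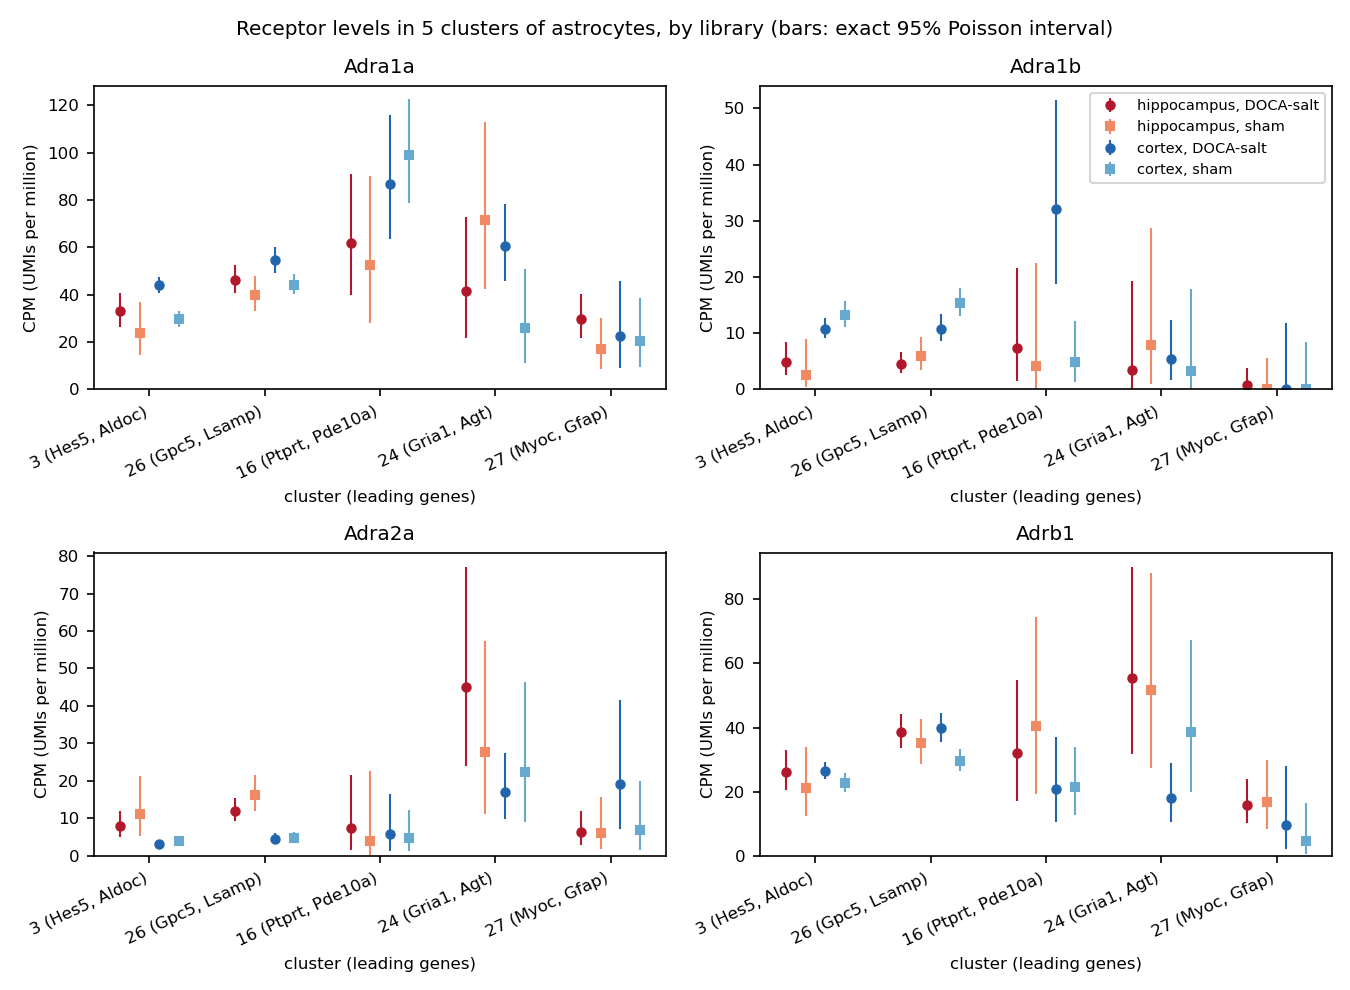
Levels of 4 receptors in CPM (linear axes from 0) in 5 clusters that hold astrocytes, with the leading genes of each cluster; each point is 1 library and each bar its exact 95% Poisson interval. Adra1b was lower and Adra2a higher in the hippocampal libraries within both clusters 3 and 26, Adra1a reached 98.8 CPM in cluster 16 of cortex sham, and cluster 24 had the highest Adra2a in hippocampus DOCA-salt (45.1 CPM).

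Astrocytes with at least 3 UMIs of Gfap, a filament gene that marks reactive and white-matter astrocytes, were set beside those with none. Adrb1 was 21.8 CPM in Gfap-high and 37.0 CPM in Gfap-negative astrocytes of hippocampus DOCA-salt, and 24.4 and 38.2 CPM in those of hippocampus sham. In cortex DOCA-salt it was 21.1 and 31.5 CPM, and in cortex sham 16.5 and 26.6 CPM. Adrb1 was thus lower in Gfap-high astrocytes in 4 of 4 libraries. Adra1a was 29.7 and 47.9 CPM in Gfap-high and Gfap-negative astrocytes of hippocampus DOCA-salt, 31.5 and 45.6 CPM in hippocampus sham, 44.1 and 48.0 CPM in cortex DOCA-salt, and 33.0 and 39.1 CPM in cortex sham. Gfap-high cells were deeper, at a median of 9542 UMIs against 5119, and their number was 635 against 6879. The part of that depth in these differences was not tested. Astrocytes were split by Agt, the angiotensinogen gene, in the same way, with Adrb1 at 28.4 CPM (26.3 to 30.6) in Agt-high and 28.3 CPM (25.7 to 31.2) in Agt-negative cells. Adra1b was 8.57 CPM (7.42 to 9.84) in Agt-high and 13.1 CPM (11.3 to 15.1) in Agt-negative astrocytes over all libraries, while the order was the other way in hippocampus DOCA-salt, at 4.35 and 1.87 CPM (19 and 4 UMIs), and in hippocampus sham, at 7.31 and 4.10 CPM (13 and 5 UMIs).

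Microglial Adrb1 was likewise read in 3 clusters. Another microglial cluster, cluster 1 (Ccl6, Aif1; 557 cells), was shallow, at a median of 1042 to 1112.5 UMIs per cell, and held 1 Adrb1 UMI in each hippocampal library and 2 in each cortical one. In cluster 18 (Tmem119, P2ry12), led by genes of resting microglia, it was 23.0 CPM in hippocampus DOCA-salt and 27.3 CPM in hippocampus sham, and 25.01 CPM in cortex DOCA-salt and 30.7 CPM in cortex sham. In cluster 17 (Gpr84, Il1a), led by inflammatory genes, it was 29.6 and 36.5 CPM in hippocampus DOCA-salt and hippocampus sham, and 29.7 and 49.3 CPM in cortex DOCA-salt and cortex sham. The intervals of that last pair did not meet, at 25.7 to 34.3 CPM after DOCA-salt and 42.5 to 57.0 CPM after sham. In cluster 19 (Ifnb1, Cxcl10), led by interferon genes, it was 19.6 and 21.2 CPM in hippocampus DOCA-salt and hippocampus sham, and 30.5 and 22.7 CPM in cortex DOCA-salt and cortex sham. Cluster 17 held 957 cells in cortex DOCA-salt and 582 in cortex sham, and cluster 19 held 490 and 648.

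The rare receptors had other places. Adra2c had 19 UMIs in hippocampus DOCA-salt and 30 in hippocampus sham, and 0 in cortex DOCA-salt and 4 in cortex sham, over all kept cells. The 0 allows up to 0.0487 CPM. In the joint clustering, cluster 14 (Acta2, Myl9) held 17 of the 53, with 9 in hippocampus DOCA-salt and 8 in hippocampus sham. Cluster 15 (Tmem212, Ccdc153), which holds the ependymal cells that line the ventricles, had 10, and cluster 20 (Igfbpl1, Sox11) had 10. Each of the last 2 had 4 in hippocampus DOCA-salt and 6 in hippocampus sham. By marker class, 25 of the 53 lay in cells not gated, 8 in the neuronal lineage and 3 in 16 fibroblasts. Cortex held few cells of the ependymal class, 9 after DOCA-salt and 4 after sham, and of the neuronal lineage, 15 and 10. Cell numbers of cluster 14 by library are not given here. The Adra2c difference cannot be told apart from a difference in the cells collected. Of the 13 Adrb3 UMIs 9 lay in cluster 15, with 4 in hippocampus DOCA-salt, 4 in hippocampus sham and 1 in cortex DOCA-salt. Within the endothelium, 3 of the 4 Adra2c UMIs lay in 78 arterial cells and 1 in 2675 capillary cells. The 3 arterial UMIs came from 2 cells, at 12.9 CPM (2.66 to 37.7), which is the floor of 3 counts.

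The genes whose level over 24 points (6 classes in 4 libraries) was most like that of a receptor were found by Pearson's correlation of log2(CPM + 1). For Adra1a these were Rmst (r = 0.97), Nrcam (0.96) and Kcnk2 (0.96). For Adra1b they were Bmp7 (0.92), 1700102H20Rik (0.91) and Kcnn3 (0.90), and for Adra2a Lrrc2 (0.92), Carmil1 (0.91) and Rarb (0.91). For Adrb1 they were Ralgps2 (0.94), Sirpa (0.93) and Celf2 (0.93). Between the receptors r was 0.73 for Adra1a with Adra1b, 0.31 for Adra1a with Adrb1 and -0.057 for Adra2a with Adrb1. The points share libraries and depth, and with Spearman's rank correlation only 1700102H20Rik remained among the 3 nearest, for Adra1b.

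A list of 58 measured genes of noradrenaline handling and receptor signalling was read in the 5 most frequent classes: G protein alpha subunits, adenylyl cyclases and protein kinase A subunits, the phospholipase C branch, receptor kinases and arrestins, RGS proteins, and genes of noradrenaline synthesis, transport and breakdown. In hippocampal oligodendrocytes 10 of the 50 compared were past 1.5-fold between DOCA-salt and sham, 9 of them higher (20%, against 14.6% of all genes). In hippocampal astrocytes it was 1 of 48 (2.08%, against 12.2%) and in microglia 7 of 50 (14.0%, against 12.2%). In endothelial cells it was 7 of 44 (15.9%, against 14.2%) and in pericytes 7 of 29 (24.1%, against 25.6%). In cortex it was 6 of 49 in oligodendrocytes (12.2%, against 12.7%), 5 of 49 in astrocytes (10.2%, against 12.4%) and 7 of 49 in microglia (14.3%, against 11.3%). It was 4 of 43 in endothelial cells (9.30%, against 13.1%) and 5 of 23 in pericytes (21.7%, against 24.9%). The median log2 ratio of the list in astrocytes was 0.10 in hippocampus and 0.07 in cortex, against 0.03 and 0.04 over all genes.

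Among the signalling genes, 4 were past 1.5-fold higher after DOCA-salt in the oligodendrocytes of both tissues. In oligodendrocytes 14.6% of all genes were past the fold in hippocampus and 12.7% in cortex, in either direction. The share of all genes past it in both tissues is not given here, so the 4 are a description. Itpr2, the receptor through which inositol trisphosphate releases calcium, was 31.4 CPM in hippocampus DOCA-salt, against 14.99 CPM in hippocampus sham, a ratio of 2.10 (1.87 to 2.35). In cortex it was 42.7 CPM after DOCA-salt, against 20.4 CPM after sham, a ratio of 2.09 (1.84 to 2.38). Adcy2, an adenylyl cyclase, had ratios of 2.01 (1.39 to 2.93) in hippocampus and 1.61 (1.13 to 2.29) in cortex. Itpr3 had ratios of 1.82 (1.01 to 3.33) and 4.19 (1.499 to 14.4), the second from 18 and 5 UMIs, and Adcy8 had ratios of 1.51 and 1.88 with intervals that included 1. Adcy2 was at 3.01 CPM in hippocampus DOCA-salt and 1.499 CPM in hippocampus sham in these oligodendrocytes, against 187 and 137 CPM in the astrocytes of the same libraries. The summed astrocyte markers in the oligodendrocytes, given above, were also higher after DOCA-salt in both tissues, and their part in the Adcy2 and Adcy8 ratios was not tested. In endothelial cells Prkar2b, a regulatory subunit of protein kinase A, had ratios of 1.97 (1.38 to 2.86) in hippocampus and 2.05 (1.20 to 3.59) in cortex, and Grk3, a kinase that desensitises receptors, had 1.92 and 1.68 with intervals that included 1. In endothelial cells the summed astrocyte markers were 845 CPM in hippocampus DOCA-salt and 363 CPM in hippocampus sham, and 2328 CPM in cortex DOCA-salt and 2223 CPM in cortex sham, with all 8 detected in each. Their part in the endothelial ratios was not tested. In microglia Adcy5 was past 1.5-fold lower in both tissues, at 0.641 (0.424 to 0.966) in hippocampus and 0.611 (0.339 to 1.07) in cortex. It was at 2.85 CPM in hippocampus DOCA-salt and 4.45 CPM in hippocampus sham (47 and 54 UMIs). In cortex it was at 1.51 CPM after DOCA-salt and 2.47 CPM after sham (21 and 36 UMIs). Oligodendrocytes, in the same order, held 41.9, 53.4, 39.5 and 51.4 CPM, with ratios of 0.785 in hippocampus and 0.770 in cortex. The part of oligodendrocyte RNA in the microglial Adcy5 ratios was not tested. Among genes of monoamine synthesis and breakdown, Ddc, Maoa and Maob (Ddc and Maob picked after their values were seen) had cortical microglial ratios of 1.57 (1.01 to 2.46), 1.62 (1.17 to 2.27) and 1.56 (1.04 to 2.35). The summed astrocyte markers in those microglia, 2423 CPM after DOCA-salt and 761 CPM after sham, were higher after DOCA-salt too. The oligodendrocyte markers there were 589 CPM after DOCA-salt and 622 CPM after sham. The part of either in these ratios was not tested.

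The phospholipase C branch lies downstream of the alpha-1 receptors. In astrocytes the median log2 ratio of its compared genes was -0.34 in hippocampus (9 genes) and -0.06 in cortex (11 genes). Plcb1, a phospholipase C that Gq activates, had ratios of 0.694 (0.668 to 0.722) in hippocampus and 0.664 (0.646 to 0.682) in cortex, on 6646 UMIs in hippocampus DOCA-salt and 4216 in hippocampus sham. Prkca, a protein kinase C, was at 0.717 (0.651 to 0.790) in hippocampus. Adcy8, an adenylyl cyclase that calcium stimulates, was at 1.31 (1.11 to 1.55) in hippocampus and 2.40 (2.14 to 2.70) in cortex. Grk5, a receptor kinase, was at 1.78 (1.41 to 2.27) in cortical astrocytes. Adcy5 was at 0.440 (0.236 to 0.821) in hippocampal astrocytes, at 2.28 CPM after DOCA-salt and 5.19 CPM after sham (23 UMIs each). In oligodendrocytes of the same libraries it was 41.9 and 53.4 CPM, a ratio of 0.785 (0.726 to 0.847). The part of oligodendrocyte RNA in the astrocyte Adcy5 ratio was not tested. Ddc, which makes dopamine, was at 1.80 (1.29 to 2.54) in cortical astrocytes, at 4.47 CPM after DOCA-salt and 2.49 CPM after sham. In cortical oligodendrocytes it was at 115 CPM after DOCA-salt and 82.8 CPM after sham, a ratio of 1.39 (1.30 to 1.49), within 1.5-fold. The oligodendrocyte markers summed in cortical astrocytes to 607 CPM after DOCA-salt and 664 CPM after sham, with all 8 detected in both.

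Further signalling genes were past 1.5-fold in 1 tissue with an interval that excluded 1. Rgs16, which shortens G protein signals, was at 2.64 (1.94 to 3.65) in hippocampal endothelial cells, with 172 UMIs after DOCA-salt and 55 after sham. In cortical endothelial cells its ratio was 1.495 (1.02 to 2.19), within 1.5-fold in the same direction, with an interval that excluded 1. The others in hippocampus were Grk3 in oligodendrocytes at 1.76 (1.25 to 2.50), Itpr3 in microglia at 1.59 (1.18 to 2.16), Rgs10 in endothelial cells at 1.62 (1.33 to 1.99) and Gnao1 in pericytes at 2.53 (1.11 to 6.74). Gnao1 was at 85.4 CPM in pericytes of hippocampus DOCA-salt and 33.7 CPM in those of hippocampus sham, against 717 and 643 CPM in the astrocytes. In these pericytes the summed astrocyte markers were 1207 CPM in hippocampus DOCA-salt, with all 8 detected, and 323 CPM in hippocampus sham, with Acsbg1 at 0. Their part in the Gnao1 ratio was not tested. Rgs4, another RGS protein, was lower in hippocampal endothelial cells, at 0.662 (0.512 to 0.854). Its level there was 27.2 CPM after DOCA-salt and 41.1 CPM after sham. In pericytes of the same libraries it was 1437 and 1864 CPM, also lower, at 0.771 (0.677 to 0.878). The part of pericyte RNA in the endothelial Rgs4 ratio was not tested. In cortex Rgs16 was lower in oligodendrocytes, at 0.253 (0.0751 to 0.680, 5 and 23 UMIs), Prkcd in endothelial cells, at 0.589 (0.381 to 0.896), and Itpr1 in pericytes, at 0.650 (0.454 to 0.930). These genes were taken for the position of their intervals, so the values are a description.

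Slc29a4, a monoamine transporter, was also past 1.5-fold lower in 3 hippocampal classes. It had 3 UMIs in oligodendrocytes of hippocampus DOCA-salt, against 75 in those of hippocampus sham, and 0 against 32 in microglia. In endothelial cells it had 20 UMIs in hippocampus DOCA-salt, against 35 in hippocampus sham, a ratio of 0.483 (0.264 to 0.860). The 8 choroid plexus markers summed to 2.76 CPM in oligodendrocytes of hippocampus DOCA-salt, with no UMI of Aqp1, against 29.6 CPM in those of hippocampus sham, where all 8 were detected. In microglia they summed to 1.40 CPM in hippocampus DOCA-salt, with no UMI of Clic6 or Aqp1, against 24.2 CPM in hippocampus sham. In endothelial cells they summed to 2.43 CPM in hippocampus DOCA-salt, with Kl, Kcnj13 and Aqp1 at 0, against 28.1 CPM in hippocampus sham. Their part in the Slc29a4 ratios was not tested.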

How the data were processed

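The deposited files hold raw counts of UMIs per gene and barcode, made by the authors from SeekOne DD 3' droplet libraries. The tools fastp, STAR, Subread and Seurat and the build GRCm38 are given in the submitters' processing notes. Annotation release and counting strand are not given in the sources used here. A barcode needed 300 genes and no more than 20% of UMIs from mitochondria (403 of 45315 removed), and Scrublet in scanpy 1.11.5, at an expected rate of 0.08, removed 2390 doublets.

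Classes came from sets of 8 markers, and 38841 of 42522 cells were assigned. UMIs were summed per class and library and scaled to CPM. Intervals are exact at 95%: Poisson for levels, Clopper-Pearson for shares, conditional on the summed count for ratios. A count of 0 was read against a floor of 3 counts. UMIs are from the 3' end, so levels are compared between cells, not between genes. The joint Leiden clustering used 2000 variable genes, 30 components, 15 neighbours and resolution 1.

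Members, marker sets, the list of signalling genes and the rules for naming were chosen with earlier results of these data known. All 8 members were described. Of 58 signalling genes, the text draws on those past 1.5-fold the same way in both tissues and on up to 3 highest and 3 lowest per class and tissue by the interval bound nearest to 1. Alternatives were looser and stricter gates, a stricter cell filter, no doublet removal, thinning, 10 UMIs as minimum, equal weight per cell, joint clustering and omission of shared barcodes. Intervals and fold calls were tested on simulated counts. Python 3.11.15, numpy 2.4.6, scipy 1.17.1 and pandas 2.3.3 were used.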

Additional observations from a re-analysis of the deposited data

Results flagged for a closer look

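Receptor UMIs were also present in barcodes that entered no comparison. The 2390 barcodes removed as doublets held 263 UMIs of Adra1a (13.3 CPM), 62 of Adra1b (3.14 CPM), 59 of Adra2a (2.99 CPM) and 291 of Adrb1 (14.7 CPM). The 403 barcodes removed by the cell filter held 4 UMIs of Adra1a (6.96 CPM).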

How the results depend on the processing

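Counts of receptor and class pairs past 1.5-fold depended on the setting. For DOCA-salt against sham in hippocampus the count was 2, with 4 under a stricter gate and 0 in cells thinned to 2000 UMIs. In cortex it was 1, with 2 under a stricter gate, 0 when thinned and 3 with a minimum of 10 UMIs. For hippocampus against cortex after DOCA-salt it was 5, with 2 when thinned and 3 with equal weight per cell. After sham it was 4, with 7 at a minimum of 10 UMIs. Thinning turned 4 ratios round: Adra2a in hippocampal oligodendrocytes (DOCA-salt over sham) to 0.275, Adra1a in cortical microglia (DOCA-salt over sham) to 0.897, and, for hippocampus over cortex after DOCA-salt, Adra1a in microglia to 1.23 and Adrb1 in border macrophages to 0.949. Thinning leaves fewer UMIs by construction, and the cause was not tested further. Among the recomputed ratios 360 moved by less than counting error, 5 moved by more and 4 turned round, and among the recomputed levels 262 moved by less and 8 by more. The 360 and 262 include 41 ratios and 30 levels under the minimum of 10 UMIs, a setting that cannot change a value. The astrocyte differences of Adra1b and Adra2a between tissues were past 1.5-fold in each of the 9 alternatives, at 0.451 and 2.17 after DOCA-salt and 0.334 and 2.51 after sham when thinned. No paired analysis was possible because each group held 1 library and the labels carry no replicate numbers. With 1 library per group, differences between mice, libraries and treatments cannot be told apart.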
